A study of Homo sapiens with 9 samples.

Results

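Transcripts of p62 (SQSTM1) and of the proteins that work beside it in selective autophagy were measured by mRNA sequencing in Huh-7 cells, a human hepatocellular carcinoma line. The 10 genes are the cargo receptors SQSTM1, NBR1, OPTN, CALCOCO2 and TAX1BP1, the ATG8 genes MAP1LC3B, GABARAP, GABARAPL1 and GABARAPL2, and the kinase gene TBK1. They were chosen by name, from the known binding of the vault RNA vtRNA1-1 to p62 and from the roles of the other proteins. Each symbol was matched to 1 Ensembl identifier among the 60664 genes of the count table, and all 10 were among the 17207 genes with enough reads to test.

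The study compared 3 lines with 3 libraries each: unedited Huh-7 cells (WT), cells lacking the VTRNA1-1 gene (1-1 KO) and cells lacking the VTRNA1-2 gene (1-2 KO). Both knockouts were made by CRISPR/Cas9 editing, and no line received any other treatment. WT and 1-1 KO cells came from another laboratory, and 1-2 KO is 1 single-cell clone derived from the WT cells with paired guides and eSpCas9. All cells were taken from complete medium at 80% confluency. Each knockout is represented by 1 line, so that the loss of a vault RNA and any other difference between the lines cannot be told apart. The replicates are described as biological, without saying whether they were separate cultures, so the p-values measure the spread between these libraries.

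In selective autophagy a receptor holds its cargo, often tagged with ubiquitin, and binds ATG8 proteins on the growing autophagosome membrane through a short LC3-interacting motif. The ATG8 family falls into the LC3 and the GABARAP branches, and its members are attached to membrane lipid by a ubiquitin-like conjugation system. TBK1 phosphorylates several receptors and thereby strengthens their hold on cargo or on ATG8 proteins. p62 itself forms condensates with ubiquitinated proteins, captures KEAP1, the inhibitor of the transcription factor NRF2, and is degraded together with its cargo, which makes p62 protein a common readout of autophagic flux. In liver, p62 accumulates in the inclusions of hepatocellular carcinoma and of chronic liver disease. The counts describe transcripts only, and neither p62 protein nor flux can be read from them.

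The transcripts removed in the knockouts are the 2 short RNAs below, shown because they differ between the lines by design while p62 is known to bind the first. VTRNA1-1 lies at chr5:140711275-140711373 and VTRNA1-2 at chr5:140718925-140719013, both on the plus strand of GRCh38. Capitals mark the bases that are not identical between them in a global alignment.
VTRNA1-1: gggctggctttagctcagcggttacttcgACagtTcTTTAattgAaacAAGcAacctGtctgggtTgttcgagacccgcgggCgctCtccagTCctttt
VTRNA1-2: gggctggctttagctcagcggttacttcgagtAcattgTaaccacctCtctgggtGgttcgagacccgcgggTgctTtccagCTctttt
The RNAs are 99 and 89 nt long, and 81 of 99 aligned columns were identical (81.8%). SQSTM1 is on the same chromosome arm, 39.1 Mb downstream of VTRNA1-2.

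The libraries do not check the knockouts. A single count of VTRNA1-1 was found, in WT replicate 1, and none of VTRNA1-2 in any of the 9 libraries. VTRNA1-3 reached at most 2 counts and VTRNA2-1 had 0. Libraries enriched for polyadenylated RNA hold few transcripts of this kind.

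Total counts were between 32384469 and 41782387 per library, and the 10 genes had between 1021 and 19824 counts each. WT replicate 3 and 1-2 KO replicate 1 stood apart from their lines and deviated alike, with a correlation of their deviations of 0.471 across genes. In both, genes in the top 10% of GC content were above their line's mean, by a median of 0.11 and 0.092 on the log2 scale. The other 7 libraries had medians from -0.071 to 0.019. Each line's mean includes the library itself, so that deviations within a line offset each other. The 8 hepatocyte markers, among them ALB, AFP and HNF4A, were above 3 counts in every line, and their summed level was 13500 to 14400 CPM (counts scaled to a common library total with TMM factors) in WT, 28900 to 29800 in 1-1 KO and 20000 to 21800 in 1-2 KO. Most of the difference between the sums came from ALB, with means of 2530 CPM in WT, 9430 in 1-1 KO and 4740 in 1-2 KO, and AFP, with 1760, 8170 and 7420. Other markers had other orders: in the same order of lines, HNF4A had means of 262, 248 and 298 CPM, TTR 111, 336 and 71.6, FGB 2650, 3460 and 2240, and APOB 5460, 5980 and 5180. The summed levels of 4 fibroblast markers were 32.3 to 33.1 CPM in WT, 76.3 to 86.7 in 1-1 KO and 55.3 to 60.4 in 1-2 KO. Most of the difference came from COL1A2, with means of 19.5, 64.9 and 38.4 CPM in the same order of lines. COL1A1 had means of 11.4, 10.5 and 13.3, and PDGFRB 1.77, 5.45 and 6.53. DCN was at 3 counts or fewer in every WT library, and had at most 4 in 1-1 KO and 5 in 1-2 KO. The 4 leukocyte markers summed to 1.49 to 1.60 CPM in WT, 3.41 to 3.69 in 1-1 KO and 2.62 to 3.13 in 1-2 KO, with CD3E at the floor of 3 counts in WT and 1-1 KO. The 4 endothelial markers summed to 7.39 to 8.04 CPM in WT, 6.40 to 7.22 in 1-1 KO and 0.831 to 1.10 in 1-2 KO, mostly from PECAM1 (means of 7.57, 6.67 and 0.839), with KDR at the floor in every line. In bulk RNA, fewer cells of a type and less RNA per cell cannot be told apart. The part of these marker differences in the results was not tested.

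In 1-1 KO, 5 of the 10 genes were higher than in WT (NBR1, CALCOCO2, TAX1BP1, MAP1LC3B and GABARAPL1) and 3 were lower (SQSTM1, OPTN and TBK1), at an adjusted p under 0.05 in edgeR's quasi-likelihood test. The largest changes were the fall of OPTN, 2.21-fold, and the rise of GABARAPL1, 1.97-fold. In 1-2 KO none was higher and 7 were lower (SQSTM1, NBR1, OPTN, MAP1LC3B, GABARAPL1, GABARAPL2 and TBK1), by 1.11-fold to 1.62-fold. Both comparisons use the same WT libraries. Among all tested genes, 63.4% passed the test in 1-1 KO (32.5% higher and 30.9% lower) and 54.4% in 1-2 KO (28.2% higher and 26.2% lower), so that 8 and 7 of 10 are read against shares of this size. The median log2 fold change of the 10 genes was 0.06 in 1-1 KO, against 0.01 over all tested genes, and -0.18 in 1-2 KO, against 0.02. Their median absolute change was 0.37 in 1-1 KO and 0.18 in 1-2 KO, against 0.35 and 0.27 over all tested genes. Counted without a test, the libraries of 5 genes lay all above and of 3 all below WT in 1-1 KO, where 68.9% of tested genes did not overlap (35.2% above and 33.7% below). In 1-2 KO none lay all above and 5 lay all below, where 58.4% of tested genes did not overlap (29.8% above and 28.7% below).

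**Figure D1:**
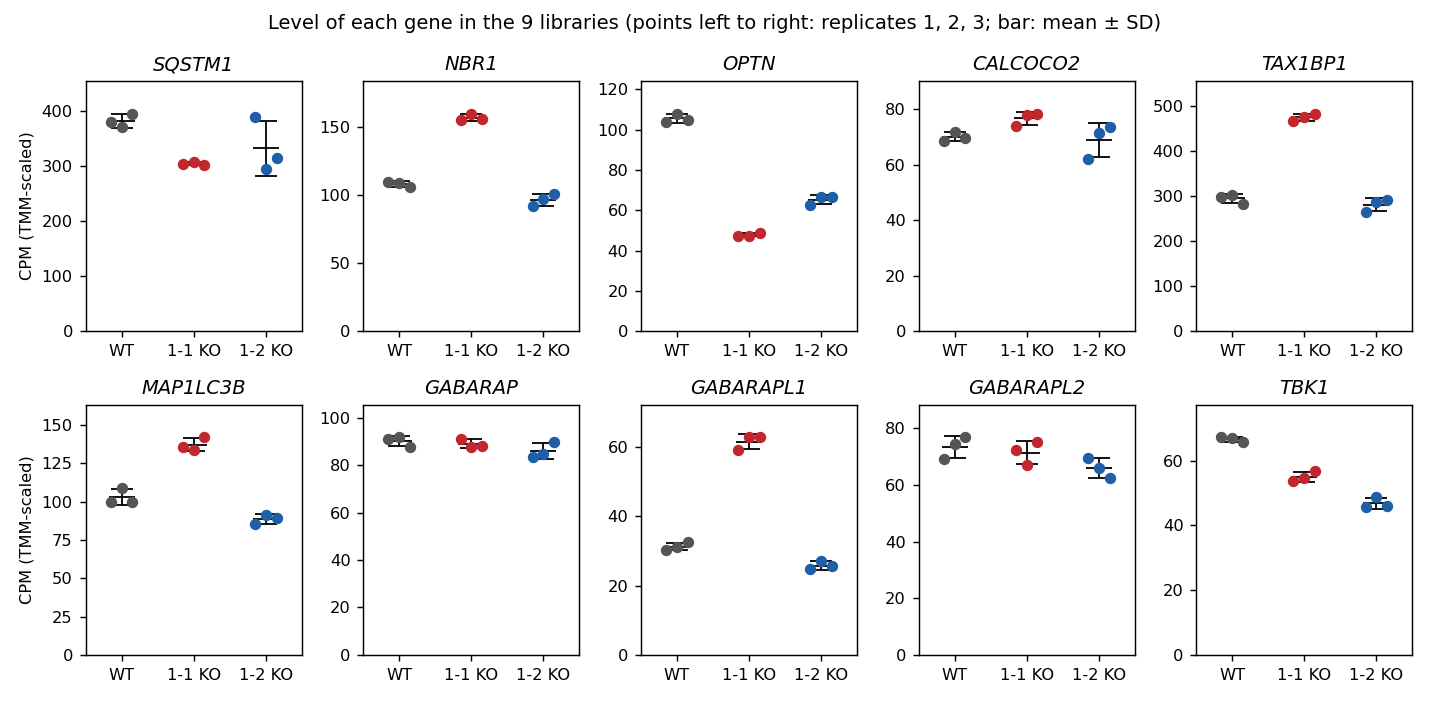
TMM-scaled CPM of the 10 genes in each of the 9 libraries, with 1 panel per gene, the lines on the x axis, points for replicates 1 to 3 from left to right, and bars for the mean and SD (n = 3). OPTN libraries of WT lie between 104 and 108 CPM and those of 1-1 KO between 47.5 and 48.8, while the SQSTM1 value of 389 in 1-2 KO replicate 1 lies among the WT values.

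SQSTM1 encodes p62, the receptor that gives the group its name. Its level was 379, 371 and 395 CPM in WT, 304, 307 and 302 in 1-1 KO, and 389, 294 and 314 in 1-2 KO. All 1-1 KO libraries were below all WT libraries, whereas 1 library of 1-2 KO, replicate 1, lay within the WT range. In 1-1 KO SQSTM1 fell by 20.2%, a log2 fold change of -0.33 (SE 0.07, 95% interval -0.49 to -0.16, adjusted p = 0.00166 in edgeR). Against a minimum change of 1.2-fold this call was lost (adjusted p = 0.166). In 1-2 KO the log2 fold change was -0.20 (SE 0.07, 95% interval -0.36 to -0.04, adjusted p = 0.0375 in edgeR).

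The 1-2 KO value of SQSTM1 depended on that single library. Without 1-2 KO replicate 1 it was -0.33, as in 1-1 KO, with an adjusted p of 2.29e-06 in edgeR. Leaving out any of the other libraries in turn gave values from -0.22 to -0.12, and the call was lost without any of these libraries (adjusted p from 0.0505 to 0.183) except 1-1 KO replicate 3. In DESeq2 on all 9 libraries the adjusted p was 0.106. The longest transcript of SQSTM1 has a GC content of 57.1%, higher than in 81.8% of 9113 genes with an average of 10 CPM or more. SQSTM1 was 0.24 above its line's mean on the log2 scale in 1-2 KO replicate 1, in which GC-rich genes were higher. The part of GC content in this value was not tested. Set against each other, 1-2 KO and 1-1 KO differed in SQSTM1 by 0.13 (95% interval -0.03 to 0.29, adjusted p = 0.15 in edgeR), by -0.0011 without 1-2 KO replicate 1 (0.983) and by 0.21 without 1-2 KO replicate 2 (0.0178).

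NBR1, a receptor with the same domain order as p62 that also serves the turnover of peroxisomes, moved in opposite directions in the knockouts. It was at 110, 109 and 106 CPM in WT, 155, 160 and 156 in 1-1 KO, and 91.8, 97.1 and 101 in 1-2 KO, and no libraries of different lines overlapped. It rose by 45.0% in 1-1 KO (log2 fold change 0.54, SE 0.04, adjusted p = 2.42e-08 in edgeR) and fell by 10.8% in 1-2 KO (log2 fold change -0.16, SE 0.04, adjusted p = 0.00233). The direct difference between the knockouts was -0.70 (adjusted p = 1.13e-09 in edgeR).

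OPTN, the ubiquitin-binding receptor optineurin that acts on damaged mitochondria and bacteria, fell in both knockouts and more so in 1-1 KO. Its level was 104, 108 and 105 CPM in WT, 47.5, 47.5 and 48.8 in 1-1 KO, and 62.8, 66.4 and 66.7 in 1-2 KO. The 3 lines did not overlap. The log2 fold change was -1.14 in 1-1 KO (SE 0.04, adjusted p = 7.18e-12 in edgeR) and -0.69 in 1-2 KO (SE 0.04, adjusted p = 1.15e-09), and the 1-2 KO level was 1.36-fold that of 1-1 KO (log2 fold change 0.45, adjusted p = 8.96e-08).

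TAX1BP1, a receptor for ubiquitinated aggregates and ferritin complexes, rose in 1-1 KO and had no call in 1-2 KO. It was at 298, 304 and 284 CPM in WT, 468, 477 and 484 in 1-1 KO, and 266, 287 and 292 in 1-2 KO, the last overlapping WT. The rise in 1-1 KO was 1.61-fold (log2 fold change 0.69, SE 0.04, adjusted p = 3.48e-09 in edgeR). In 1-2 KO the value was -0.07 (95% interval -0.16 to 0.02, adjusted p = 0.163), or -0.12 without WT replicate 3 (adjusted p = 0.0215), and the knockouts differed by -0.76 (adjusted p = 9.31e-10).

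CALCOCO2, which encodes the receptor NDP52, changed little in either knockout. Its values were 68.6, 71.8 and 69.6 CPM in WT, 74, 77.7 and 78.3 in 1-1 KO, and 62, 71.3 and 73.5 in 1-2 KO. All 1-1 KO libraries were above all WT libraries, and those of 1-2 KO overlapped WT. Its log2 fold change in 1-1 KO was 0.13 (SE 0.05, adjusted p = 0.0466 in edgeR), just past the threshold. That call was lost in DESeq2 on all 9 libraries (adjusted p = 0.104), and also without WT replicate 1 (0.127), WT replicate 2 (0.0586), WT replicate 3 (0.0638), 1-1 KO replicate 2 (0.116), 1-1 KO replicate 3 (0.128) or 1-2 KO replicate 2 (0.0521). In 1-2 KO the value was -0.02 (95% interval -0.14 to 0.10, adjusted p = 0.759), or 0.05 without 1-2 KO replicate 1. The knockouts differed by -0.15 (adjusted p = 0.0221), a call that was lost without 1-1 KO replicate 2 (0.0636), 1-1 KO replicate 3 (0.0706) or 1-2 KO replicate 1 (-0.08, 0.0924).

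Among the ATG8 genes, GABARAPL1 and MAP1LC3B rose in 1-1 KO and fell in 1-2 KO, while GABARAP and GABARAPL2 did not pass the test in 1-1 KO. GABARAPL1, a GABARAP-branch member, was at 30.3, 31.0 and 32.4 CPM in WT, 59.1, 62.7 and 62.7 in 1-1 KO, and 24.7, 27.1 and 25.5 in 1-2 KO. The lines did not overlap, and 1-1 KO was the highest. The log2 fold change was 0.98 in 1-1 KO (SE 0.05, adjusted p = 5.49e-10 in edgeR) and -0.28 in 1-2 KO (SE 0.05, adjusted p = 0.000301), and GABARAPL1 differed between the knockouts by -1.26, the largest such difference of the 10 genes (adjusted p = 3.12e-11).

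MAP1LC3B encodes LC3B, the ATG8 protein most used to count autophagosomes. It was at 99.8, 109 and 100 CPM in WT, 136, 134 and 142 in 1-1 KO, and 85.2, 91.4 and 89.6 in 1-2 KO, with no overlap between lines. It rose by 33.9% in 1-1 KO (log2 fold change 0.42, SE 0.04, adjusted p = 8.75e-07 in edgeR) and fell by 13.6% in 1-2 KO (log2 fold change -0.21, SE 0.04, adjusted p = 0.000796). The direct difference was -0.63 (adjusted p = 1.03e-08). The near-identical gene MAP1LC3B2, whose coding sequence matched MAP1LC3B at 376 of 378 bases, was at 8.49, 13.7 and 22.5 CPM in WT, 22.5, 21.8 and 22.4 in 1-1 KO, and 27, 15.9 and 12.0 in 1-2 KO. Its libraries overlapped between all lines (log2 fold changes of 0.59 in 1-1 KO and 0.32 in 1-2 KO, adjusted p of 0.0877 and 0.38 in edgeR), and how reads shared by the pair were assigned is not stated, so both values carry that uncertainty. MAP1LC3A and MAP1LC3C, the other LC3 genes, had at most 2 counts and 1 count in any library and were not tested.

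GABARAP, the founding member of its branch, was at 90.9, 91.7 and 87.8 CPM in WT, 91.2, 87.6 and 88.2 in 1-1 KO, and 83.5, 84.6 and 89.6 in 1-2 KO. The lines overlapped, and the 95% intervals of the log2 fold change were -0.10 to 0.06 in 1-1 KO (adjusted p = 0.692 in edgeR) and -0.15 to 0.01 in 1-2 KO (adjusted p = 0.135). Without WT replicate 3 GABARAP passed the test in 1-2 KO (log2 fold change -0.11, adjusted p = 0.0295). GABARAPL2, of the same branch, was at 69.1, 74.3 and 76.8 CPM in WT, 72.2, 66.9 and 75 in 1-1 KO, and 69.4, 66.0 and 62.5 in 1-2 KO. Its libraries overlapped between the lines. It gave a log2 fold change of -0.04 in 1-1 KO (95% interval -0.15 to 0.07, adjusted p = 0.53 in edgeR) and -0.15 in 1-2 KO (adjusted p = 0.0255). The latter call was lost without WT replicate 2 (adjusted p = 0.0744), WT replicate 3 (0.0626), 1-2 KO replicate 2 (0.0594) or 1-2 KO replicate 3 (0.114). The knockouts differed by -0.11 (adjusted p = 0.0759), which passed the test without WT replicate 3 (0.0379), 1-1 KO replicate 2 (0.0247) or 1-2 KO replicate 1 (0.0261).

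TBK1, the kinase of OPTN and p62, fell in both knockouts and more so in 1-2 KO. It was at 67.2, 66.9 and 65.7 CPM in WT, 53.6, 54.6 and 56.8 in 1-1 KO, and 45.8, 48.7 and 46.0 in 1-2 KO, and no lines overlapped. It fell by 17.4% in 1-1 KO (log2 fold change -0.28, SE 0.04, adjusted p = 2.78e-05 in edgeR) and by 29.7% in 1-2 KO (log2 fold change -0.51, SE 0.04, adjusted p = 8.52e-08). The direct difference was -0.23 (adjusted p = 0.000135). The knockouts thus stood in the opposite order to that in OPTN, a substrate of TBK1, which was lowest in 1-1 KO.

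**Figure D2:**
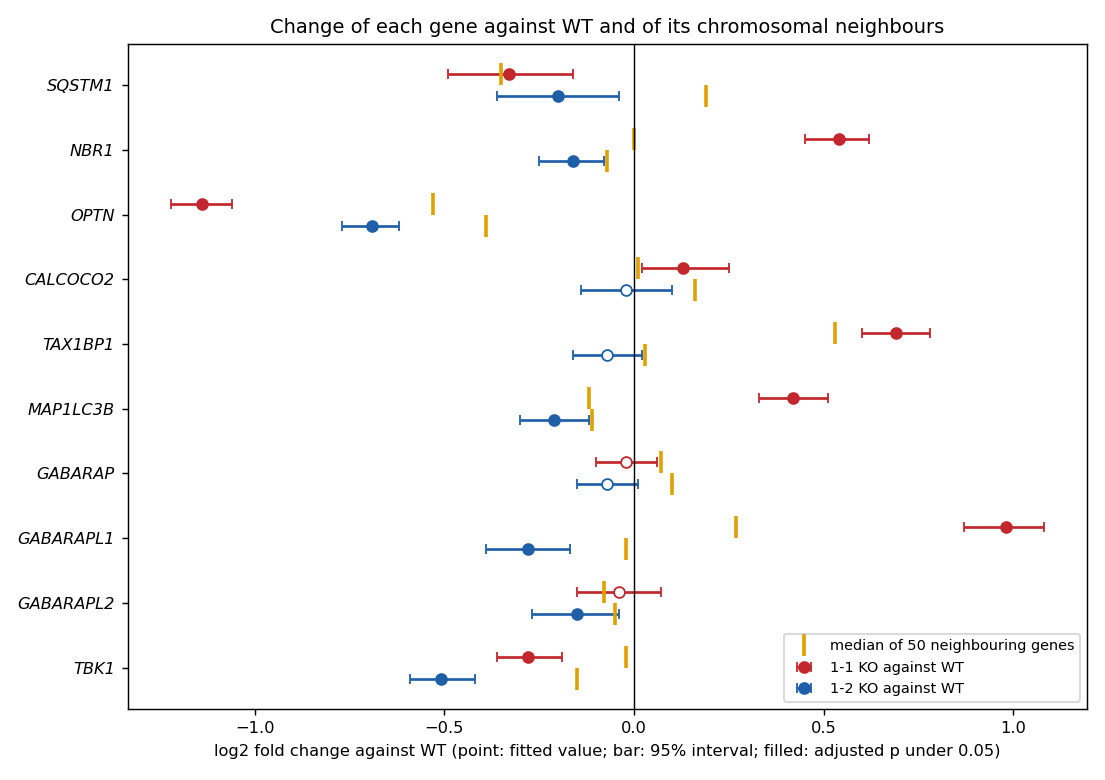
Log2 fold change of each gene against WT (x axis) in either knockout, as the fitted value with its 95% interval, filled where the adjusted p was under 0.05, with a vertical tick for the median of the 50 neighbouring tested genes. NBR1, MAP1LC3B and GABARAPL1 lie on opposite sides of 0 in the knockouts, and the SQSTM1 value of -0.33 in 1-1 KO sits on its neighbours' median of -0.35.

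With the knockouts set against each other, 1 gene was higher in 1-2 KO (OPTN) and 6 were lower (NBR1, CALCOCO2, TAX1BP1, MAP1LC3B, GABARAPL1 and TBK1), against 65.3% of all tested genes that differed (33.1% higher and 32.2% lower). The median log2 fold change of the 10 genes in this comparison was -0.19, against 0.01 over all tested genes. In 1 gene the 1-2 KO libraries lay all above and in 6 all below those of 1-1 KO, where 69.8% of tested genes did not overlap (35.3% above and 34.5% below). A stricter test against a minimum change of 1.2-fold called 5 of the 10 genes in 1-1 KO (37.9% of all tested genes), 2 in 1-2 KO (28.1%) and 5 between the knockouts (40.9%). The 5 in 1-1 KO were NBR1, OPTN, TAX1BP1, MAP1LC3B and GABARAPL1, and the 2 in 1-2 KO were OPTN and TBK1.

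Each gene was also set beside its surroundings on the chromosome, the 25 tested genes on either side. The median change of these neighbours was subtracted as a fixed value. An adjusted p after subtraction therefore measures the spread between libraries and leaves out the spread among the neighbours. SQSTM1 (ENSG00000161011) lies at chr5:179806398-179838078 (plus strand, GRCh38). In 1-1 KO the median change of its 50 neighbours, which span 3.99 Mb, was -0.35, and SQSTM1 at -0.33 ranked above 27 of them. With the neighbours' median subtracted from every gene, the value of SQSTM1 was 0.02 (adjusted p = 0.80 in edgeR), so that its fall in 1-1 KO was not told apart from the median of the genes around it. In 1-2 KO the neighbours' median was 0.19 (quartiles 0.01 and 0.36), and only 3 of the 50 were below SQSTM1. The value after subtraction was -0.38 (adjusted p = 0.000639 in edgeR). Between the knockouts the neighbours' median was 0.59, and the value of SQSTM1 after subtraction was -0.46 (adjusted p = 0.000106).

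OPTN (ENSG00000123240, chr10:13099449-13138308, plus strand) and TAX1BP1 (ENSG00000106052, chr7:27739331-27844564, plus strand) also moved with their regions, in part. The neighbours of OPTN, over 11.5 Mb, had a median of -0.53 in 1-1 KO and -0.39 in 1-2 KO, and OPTN after subtraction was -0.62 (adjusted p = 5.25e-09 in edgeR) and -0.30 (adjusted p = 7.13e-06). The neighbours of TAX1BP1, over 6.78 Mb, had a median of 0.53 in 1-1 KO (quartiles 0.18 and 1.02). Subtracting this median left 0.16 of the rise of 0.69 in TAX1BP1 (adjusted p = 0.00361 in edgeR). On GRCh38 the other 7 genes are NBR1 (ENSG00000188554) at chr17:43170481-43211689, CALCOCO2 (ENSG00000136436) at chr17:48831018-48866522, GABARAP (ENSG00000170296) at chr17:7240008-7242449 on the minus strand, MAP1LC3B (ENSG00000140941) at chr16:87383953-87404779, GABARAPL2 (ENSG00000034713) at chr16:75566375-75577881, GABARAPL1 (ENSG00000139112) at chr12:10212458-10223128 and TBK1 (ENSG00000183735) at chr12:64452090-64502114. All but GABARAP are on the plus strand. For them the neighbours' medians in 1-1 KO were between -0.12 and 0.27. After subtraction, NBR1 was 0.53 (adjusted p = 3.52e-08), MAP1LC3B 0.55 (8.52e-08), GABARAPL1 0.71 (2.10e-08) and TBK1 -0.26 (6.50e-05) in 1-1 KO. In 1-2 KO, NBR1 at -0.09 (0.0543), MAP1LC3B at -0.10 (0.0742) and GABARAPL2 at -0.10 (0.129) no longer passed the test, and GABARAP at -0.17 (0.00145) and CALCOCO2 at -0.18 (0.0134) did. In all, 6 of the 10 genes passed in 1-1 KO, where 57.8% of all genes did, 6 in 1-2 KO, where 51.8% did, and 8 between the knockouts, where 60% did.

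**Figure D3:**
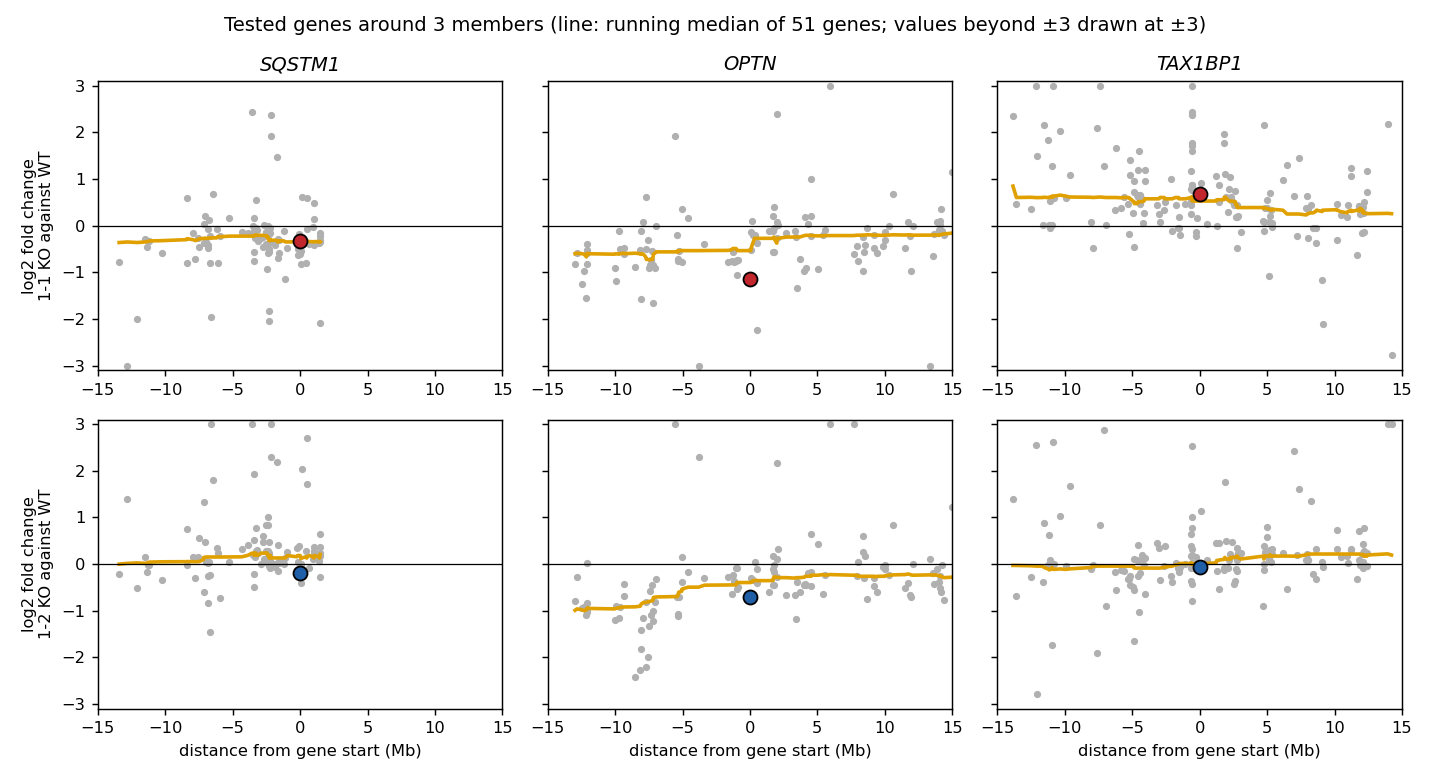
Log2 fold change against WT (y axis, values beyond 3 drawn at 3) of the tested genes around SQSTM1, OPTN and TAX1BP1 by distance from the gene's start in Mb (x axis), for 1-1 KO in the upper and 1-2 KO in the lower row, with the gene as a large point and a running median as a line. SQSTM1 lies on the line in 1-1 KO and below it in 1-2 KO, and OPTN lies below it in both.

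Levels of different genes were compared per kilobase of annotated exon. In WT, SQSTM1 was the highest at 50.6 ± 1.63 CPM per kb (SD, n = 3), followed by GABARAP at 46.2 ± 1.06, TAX1BP1 at 32.2 ± 1.09 and GABARAPL2 at 24.4 ± 1.30. OPTN at 20.6 ± 0.322 and MAP1LC3B at 20.4 ± 0.989 overlapped in their libraries, so that their order is not resolved. By this length, NBR1 at 12.9 ± 0.285, CALCOCO2 at 8.43 ± 0.195, GABARAPL1 at 7.70 ± 0.265 and TBK1 at 4.53 ± 0.0526 followed without overlap. The highest level was thus 11.2-fold the lowest.

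In 1-1 KO the order was led by TAX1BP1 at 52.0 ± 0.858 CPM per kb, with GABARAP at 45.6 ± 1.00 and SQSTM1 at 40.4 ± 0.349 behind it. OPTN at 9.33 ± 0.142 stood at rank 8 and overlapped CALCOCO2 at 9.23 ± 0.282, while GABARAPL1 at 15.2 ± 0.511 was above both. In 1-2 KO SQSTM1 at 44.1 ± 6.69 and GABARAP at 44 ± 1.68 overlapped, and TBK1 was again the lowest, at 3.18 ± 0.109. The annotated exons of SQSTM1 add up to 7535 bases, and its longest transcript has 2840. With the longest transcript as the length, SQSTM1 was still the highest in WT, at 134 CPM per kb, and the lowest was then GABARAPL1 at 9.71, a 13.8-fold span. The order of genes thus depended on the length used. For GABARAP the same lengths are 1951 and 1319 bases, a smaller relative change than for SQSTM1. The orders given for all lines, with their overlaps, therefore hold for annotated exon length only. Only the top and bottom places of WT were checked with the longest transcript.

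Across the 9 libraries, GABARAPL1 varied most like NBR1 among the other 9 genes (Pearson r = 0.990 of log2 CPM), with TAX1BP1 at 0.983 and MAP1LC3B at 0.979. SQSTM1 was most like OPTN (0.764) and least like CALCOCO2 (r = -0.745), with TAX1BP1 at -0.628. Of 9117 genes whose average was 10 CPM or more, those most like SQSTM1 were DAPK3 (0.973), PPP6R1 (0.949), EEF1AKMT2 (0.942), PACSIN3 (0.934) and SNF8 (0.932), on chromosomes 19, 19, 10, 11 and 17. These coefficients describe 9 libraries that fall into 3 lines and share the deviation of WT replicate 3 and 1-2 KO replicate 1, and they carry no test.

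The wider pathway was described by 5 lists with 54 genes, of which 52 were tested. In 1-1 KO 20 were higher and 15 lower (67.3% called, against 63.4% of all tested genes), and in 1-2 KO 12 were higher and 17 lower (55.8%, against 54.4%). With the neighbours' median subtracted, 31 were called in 1-1 KO (against 57.8% of all genes with neighbours) and 32 in 1-2 KO (against 51.8%). The plot of pathway changes shows them by list. Values below are log2 fold changes against WT, first in 1-1 KO and then in 1-2 KO unless named, each followed by its adjusted p in edgeR in parentheses.

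Of the 22 other cargo receptors, 1-1 KO had 9 higher and 7 lower than WT (72.7% called, against 63.4% of all tested genes), and 1-2 KO had 3 higher and 10 lower (59.1%, against 54.4%). RETREG1 (FAM134B), a receptor for the endoplasmic reticulum, was at 2.91, 3.20 and 3.17 CPM in WT, 7.16, 7.32 and 6.37 in 1-1 KO, and 0.973, 0.653 and 0.774 in 1-2 KO. These levels are low but the lines were far apart, with log2 fold changes of 1.17 in 1-1 KO (adjusted p = 5.54e-07 in edgeR) and -1.94 in 1-2 KO (adjusted p = 6.85e-08). ATL3, another receptor for the endoplasmic reticulum, showed the same pair of directions at 0.53 (adjusted p = 5.76e-08) and -0.43 (7.21e-07). NCOA4, the receptor for ferritin, fell from 496 to 526 CPM in WT to 437 to 440 in 1-1 KO (log2 fold change -0.22, adjusted p = 0.00104) and 255 to 297 in 1-2 KO (-0.88, 2.49e-09). BCL2L13, a mitochondrial receptor, fell by 0.56 (5.88e-09) and 0.20 (0.000178) on the log2 scale, and CCPG1, also a receptor for the endoplasmic reticulum, by 0.57 (1.35e-07) and 0.37 (1.47e-05). WDFY3 (ALFY), a scaffold that brings p62-bound aggregates to autophagosomes, rose by 0.29 (0.000131) and 0.45 (3.07e-06). With the neighbours' median subtracted, NCOA4 lost its call in 1-1 KO (-0.05, 0.378) and kept it in 1-2 KO at a smaller value (-0.37, 2e-05). BCL2L13 was then -0.11 in 1-1 KO (0.0131) and -0.37 in 1-2 KO (6.4e-07), so that its fall was the larger in 1-2 KO. RETREG1, ATL3, CCPG1 and WDFY3 kept their calls and directions in both knockouts.

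Of 10 partners of p62, 1-1 KO had 6 higher and 2 lower (80% called, against 63.4% of all tested genes), and 1-2 KO had 5 higher and none lower (50%, against 54.4%). PRKCZ, the atypical protein kinase C that binds the PB1 domain of p62, was at 1.06, 1.12 and 0.824 CPM in WT, 8.91, 8.51 and 8.60 in 1-1 KO, and 7.38, 7.58 and 7.74 in 1-2 KO. All knockout libraries were far above WT, by 8.58-fold (adjusted p = 1.85e-11 in edgeR) and 7.48-fold (adjusted p = 4.54e-11). The related kinase PRKCI, at a mean of 66.4 CPM in WT, had log2 fold changes of 0.11 (adjusted p = 0.0140) and 0.03 (0.488). KEAP1, which p62 captures, rose in both lines, by 0.56 (2.75e-07) and 0.20 (0.00437), and NFE2L2, the gene of NRF2, rose by 0.50 in 1-1 KO (3.66e-07) and had -0.07 in 1-2 KO (0.201). The neighbours of KEAP1 had medians of 0.38 and 0.21, and after their subtraction KEAP1 was 0.18 in 1-1 KO (0.00731) and -0.01 in 1-2 KO (0.917), which ended its call there. The neighbours of NFE2L2 had medians of 0.39 and 0.20, and NFE2L2 was then 0.11 in 1-1 KO (0.0613), which ended its call, and -0.28 in 1-2 KO (0.000174). PRKCI was then -0.07 (0.101) and 0.10 (0.0212).

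Among the enzymes acting on ubiquitin, TRAF6 had 0.15 in 1-1 KO (adjusted p = 0.0453 in edgeR) and 0.03 in 1-2 KO (0.705), TRIM21 rose by 0.21 (0.0356) and 0.49 (0.000124), and the deubiquitinase CYLD had -0.03 (0.742) and rose by 0.34 in 1-2 KO (0.00122). Of the kinases, CSNK2A1, the catalytic subunit of casein kinase 2, was -0.44 in 1-1 KO (9.17e-08) and 0.01 in 1-2 KO (0.869). ULK1, the initiating kinase of autophagy, was 0.14 (0.076) and 0.53 (7.48e-06), and MAP2K5, which binds the PB1 domain of p62, was -0.21 (0.0315) and -0.07 (0.448). With the neighbours' median subtracted, MAP2K5 turned to 0.26 (0.00935) in 1-1 KO, ULK1 passed the test there (0.60, 2.57e-06), and CSNK2A1 passed in 1-2 KO (-0.13, 0.00607). In 1-1 KO CSNK2A1 kept its call at a smaller value (-0.12, 0.00885).

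Of the 9 partners of TBK1, 1-1 KO had 3 higher and 3 lower (66.7% called, against 63.4% of all tested genes), and 1-2 KO had 3 higher and 2 lower (55.6%, against 54.4%). IKBKE, the closest relative of TBK1, moved in opposite directions: it was at 26.6, 23.5 and 26.2 CPM in WT, 13.8, 13.8 and 14.1 in 1-1 KO, and 35.3, 37.9 and 39.3 in 1-2 KO. The lines did not overlap, and the log2 fold changes were -0.87 (adjusted p = 2.56e-08 in edgeR) and 0.56 (adjusted p = 1.81e-06). Of the adaptors that TBK1 binds, TBKBP1 rose by 0.40 (0.000239) and 0.72 (1.15e-06), TANK had 0.13 (0.0193) and -0.26 (0.000215), and AZI2 had 0.01 (0.837) and -0.05 (0.338). Of the innate immune genes, IRF3 fell by 0.20 (0.00105) and 0.28 (7.58e-05), MAVS had -0.33 (6.50e-06) and -0.06 (0.200), and STING1 was below 0.4 CPM in every library and did not pass the test (0.715 and 0.595). PINK1, the kinase that starts mitophagy, had 0.29 (0.0233) and 0.16 (0.220). With the neighbours' median subtracted, TANK turned to -0.47 (6.59e-07) and AZI2 passed the test (0.18, 0.00326) in 1-1 KO, while MAVS lost its call in 1-1 KO (-0.09, 0.0669) and passed in 1-2 KO (-0.16, 0.00443), as did PINK1 (0.30, 0.0259).

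Of the 10 genes of ATG8 conjugation, 2 were higher and 3 lower in 1-1 KO (50% called, against 63.4% of all tested genes), and in 1-2 KO 1 was higher and 5 were lower (60%, against 54.4%). The largest change was that of ATG10, the enzyme that joins ATG12 to ATG5, which went from 10.9 to 13.2 CPM in WT to 5.96 to 7.30 in 1-1 KO (log2 fold change -0.85, adjusted p = 2.54e-06 in edgeR) and 7.50 to 7.99 in 1-2 KO (-0.60, 9.41e-05). ATG5 fell by 0.16 (0.00148) and 0.32 (4.39e-06), while ATG12 had -0.10 (0.0719) and -0.02 (0.769) and ATG16L1 had -0.07 (0.200) and 0.00 (0.991). Of the ATG8 proteases, ATG4A had -0.02 (0.860) and -0.34 (0.000886), ATG4B -0.04 (0.408) and -0.04 (0.357), ATG4C -0.21 (0.00633) and -0.15 (0.0432), and ATG4D 0.39 (0.00126) and 0.32 (0.00580). ATG7, the activating enzyme, had -0.08 (0.214) and -0.17 (0.0161), and ATG3, which transfers ATG8 proteins to lipid, had 0.17 (0.00248) and -0.07 (0.201). With the neighbours' median subtracted, 2 of the 10 were called in 1-1 KO and 5 in 1-2 KO. ATG10 kept its calls at smaller values, -0.40 in 1-1 KO (0.00267) and -0.30 in 1-2 KO (0.0157). Calls ended in 1-1 KO for ATG4C (-0.14, 0.0503), ATG4D (-0.01, 0.933) and ATG3 (-0.07, 0.187), and in 1-2 KO for ATG5 (-0.05, 0.314), ATG4C (0.08, 0.293), ATG4D (0.10, 0.347) and ATG7 (-0.13, 0.0519). In 1-2 KO ATG4B (-0.19, 0.000449), ATG3 (-0.21, 0.000771) and ATG16L1 (-0.12, 0.0479) then passed.

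The promoters of the 10 genes were read from RefSeq (GRCh38.p14), where 15 start sites matched them, and each window of 250 bases before to 50 after the start was searched for a pair of motifs on both strands. The antioxidant response element (TGACNNNGC) is bound by NRF2, and the E-box (CACGTG) is bound by bHLH factors such as TFEB. No match of one shared bases with a match of the other in these windows. The first was in 13.3% and the second in 7.26% of 35116 promoters. The first occurred in the windows of CALCOCO2 and MAP1LC3B, the second in that of TBK1, and neither in the 3 windows of SQSTM1. Bases outside the windows, farther upstream included, were not searched, so an absence holds for the windows only. The 250 bases before the start are shown for the third RefSeq start site of SQSTM1 at chr5:179820655-179820904, for MAP1LC3B at chr16:87392086-87392335 and for TBK1 at chr12:64451870-64452119, all on the plus strand. Capitals mark the matches.
SQSTM1: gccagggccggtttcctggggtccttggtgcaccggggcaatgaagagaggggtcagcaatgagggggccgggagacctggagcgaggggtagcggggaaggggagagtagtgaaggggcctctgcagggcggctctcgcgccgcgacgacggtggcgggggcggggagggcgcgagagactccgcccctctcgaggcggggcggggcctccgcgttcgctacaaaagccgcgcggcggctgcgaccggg
MAP1LC3B: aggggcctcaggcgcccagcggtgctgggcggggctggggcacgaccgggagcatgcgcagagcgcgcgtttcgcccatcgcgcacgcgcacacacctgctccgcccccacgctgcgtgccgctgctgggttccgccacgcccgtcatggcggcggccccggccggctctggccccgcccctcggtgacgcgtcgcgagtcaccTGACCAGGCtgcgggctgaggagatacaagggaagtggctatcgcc
TBK1: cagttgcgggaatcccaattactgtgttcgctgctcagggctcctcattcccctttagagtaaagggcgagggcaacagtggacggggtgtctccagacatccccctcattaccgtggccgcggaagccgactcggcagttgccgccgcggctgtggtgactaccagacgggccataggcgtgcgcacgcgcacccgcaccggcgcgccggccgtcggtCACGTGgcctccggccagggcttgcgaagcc
The match in MAP1LC3B starts 46 bases and that in TBK1 31 bases before the start site. Of the 15 windows, only those of CALCOCO2 and MAP1LC3B held the first motif, a share close to the 13.3% of all promoters. Both genes rose in 1-1 KO, CALCOCO2 just past the threshold (adjusted p = 0.0466 in edgeR). NBR1, TAX1BP1 and GABARAPL1, which also rose, hold neither motif in these windows. A part of the motifs in these changes was not tested. A match describes letters only.

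Several of the 10 genes overlap others on the opposite strand, and whether the counting used the strand is not stated. MAP1LC3B overlaps FBXO31 by 8190 bases (1337 to 1940 counts for FBXO31 per library), TAX1BP1 overlaps JAZF1 by 13992 bases (130 to 432 counts), and SQSTM1 overlaps MRNIP by 2946 bases (314 to 511 counts) and MGAT4B by 555 bases (3002 to 4983 counts). These lengths are of whole gene spans, introns included, and the share within exons was not measured. All annotated exons of TAX1BP1 add up to 9167 bases, fewer than its overlap with JAZF1. The processed pseudogenes SQSTM1P1 and MAP1LC3BP1 had at most 1 count in any library.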

How the data were processed

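Stranded mRNA libraries of the 3 Huh-7 lines, made in triplicate, were sequenced paired-end. The deposited values are raw read counts, which the authors obtained by aligning to hg38 with STAR and counting with featureCounts. Tool versions, the strand setting and the treatment of multi-mapping reads are not given in the sources used here. Total counts per library were between 32384469 and 41782387. No column of another sample was present.

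Genes were tested in R 4.3.3 with edgeR 4.0.16: filterByExpr (minimum count 10, minimum total 15), TMM scaling, 1 quasi-likelihood fit of all 9 libraries with a term per line, and 3 comparisons, each adjusted by Benjamini-Hochberg over 17207 genes at 0.05. The biological coefficient of variation was 5.55%. DESeq2 1.42.0, which the authors used, was an alternative. The fit was run on simulated counts in which 200 genes were changed, in 1-1 KO only. In the data 63.4% of tested genes were called in 1-1 KO. The simulation therefore did not check TMM scaling or the error rate under so wide a change. CPM were TMM-scaled, levels between genes were divided by the union of exons in GENCODE 44 (GRCh38), and likeness was Pearson's r of log2 CPM over 9 libraries. For the neighbour comparison, the median change of the 25 tested genes on either side was entered as a fixed offset, without its own spread. A line was at the floor where every library had 3 counts or fewer. Python 3.11.15 (matplotlib 3.10.9, numpy 2.4.6, pandas 2.3.3) made the tables and plots.

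The 10 genes and the pathway lists were chosen with earlier results of these data known. Named were all 10, every gene of lists of at most 10, of the 22 other cargo receptors the 4 with the smallest adjusted p in each knockout, and the 5 genes most like SQSTM1. A single gene of the pathway lists is included in the counts of calls and is not reported here. No protein sequences were used here. Alternatives covered scaling, filter, tool, a minimum change of 1.2-fold, a threshold of 0.01, neighbours, a replicate block and each library left out. Leaving out WT replicate 3 and 1-2 KO replicate 1 together was chosen after seeing the data.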

Additional observations from a re-analysis of the deposited data

Results flagged for a closer look

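NBR1, MAP1LC3B and GABARAPL1 differed between the knockouts in direction: each rose in 1-1 KO and fell in 1-2 KO, both past the threshold of edgeR's quasi-likelihood test, and the test of the difference itself was passed too. For NBR1, 1-2 KO against 1-1 KO gave a log2 fold change of -0.70 (95% interval -0.78 to -0.62, adjusted p = 1.13e-09). For MAP1LC3B it was -0.63 (95% interval -0.72 to -0.54, adjusted p = 1.03e-08). For GABARAPL1 it was -1.26 (95% interval -1.36 to -1.15, adjusted p = 3.12e-11). Over all fits that left out 1 library, these differences ranged from -0.73 to -0.66, from -0.66 to -0.60 and from -1.29 to -1.23. The falls in 1-2 KO were small beside the rises in 1-1 KO, and for NBR1 and MAP1LC3B they no longer passed the test after subtracting what the surrounding genes showed at their median (log2 values of -0.09 and -0.10, adjusted p of 0.0543 and 0.0742).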

How the results depend on the processing

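Over the 30 log2 fold changes of the 10 genes, 630 values were computed under alternatives. In 557 the direction and the side of the threshold were kept, 49 fell short of it, 12 passed it newly and 12 changed sign, and the cause was not tested. Changes of sign were SQSTM1 in 1-1 KO at 0.02 and between the knockouts at -0.46 with neighbours subtracted, SQSTM1 between the knockouts at -0.0011 without 1-2 KO replicate 1 and -0.003 without WT replicate 3 and 1-2 KO replicate 1, GABARAP in 1-1 KO at 0.03 by library size and 0.0038 with at least 10 counts in every library, GABARAPL2 in 1-1 KO at 0.01 by library size, 0.04 with neighbours subtracted and 0.01 without 1-1 KO replicate 2, and CALCOCO2 in 1-2 KO at 0.03 by library size, 0.05 without 1-2 KO replicate 1 and 0.03 without both libraries. Over the fits without 1 library, these values ranged from -0.08 to 0.01 for GABARAPL2, from -0.07 to 0.05 for CALCOCO2 and from -0.0011 to 0.21 for SQSTM1. Against a minimum change of 1.2-fold, 5 instead of 8 of the 10 genes were called in 1-1 KO and 2 instead of 7 in 1-2 KO. Of the 52 tested pathway genes, 16 instead of 35 were called in 1-1 KO and 13 instead of 29 in 1-2 KO. Between the knockouts 14 instead of 32 pathway genes were called. Among all tested genes the stricter test called 37.9%, 28.1% and 40.9% in 1-1 KO, in 1-2 KO and between the knockouts, instead of 63.4%, 54.4% and 65.3%. The span of levels in WT was 11.2-fold, or 13.8-fold by the longest transcript and 10.9 to 11.4-fold without a WT library. With 1 library left out, 7 to 8, 5 to 7 and 6 to 8 of the 10 genes and 28 to 38, 27 to 30 and 28 to 35 pathway genes were called in the same 3 comparisons. Without WT replicate 3 and 1-2 KO replicate 1 the counts were 8, 7 and 7 of the 10 genes. The share over all tested genes was not measured for fits that left out libraries or used a replicate block. Library size alone moved the median of all genes by 0.050 and 0.055.

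The deviations of same-numbered libraries of different lines had correlations from -0.383 to 0.172, and those of differently numbered libraries from -0.355 to 0.471. Deviations within a line offset each other, and WT replicate 3 and 1-2 KO replicate 1 stood apart. These correlations therefore cannot decide whether replicate numbers pair the samples. With the replicate number as a block, 8, 7 and 7 of the 10 genes and 32, 28 and 31 pathway genes were called in 1-1 KO, in 1-2 KO and between the knockouts, and all 30 values of the 10 genes kept their direction and side. A block uses degrees of freedom, and depth was not the limit for the 10 genes, which had at least 1021 counts in every library.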
